A study of Mus musculus with 12 samples.

Results

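The genes described here are Nodal, Tdgf1, Lefty1, Lefty2, Fst, Ltbp1, Skil, Eomes and T, 9 of the 23086 gene symbols counted, chosen by name as the NODAL ligand, its coreceptor, inhibitors of the pathway and mesendoderm targets. T had too few counts for the low-count filter, so 8 of the 9 were among the 12322 genes tested. Total RNA came from mouse embryoid bodies, aggregates of differentiating embryonic stem cells, after 2 days of differentiation. The cells were A2lox.cre embryonic stem cells, a line built so that doxycycline switches on a gene inserted beside Hprt. The wild-type line carried FLAG-tagged Lhx1, a LIM homeodomain factor required for head formation, unchanged, and the mutant line carried a FLAG-tagged mutant form, with the mutation itself left unstated by the labels. Each line was left without doxycycline or given it for 16 h, and each of the 4 groups had 3 libraries. How many clones stand behind each line is also unstated, so in comparisons of lines the form of Lhx1 and any other difference between the lines cannot be told apart.

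NODAL is a secreted ligand of the TGF-beta family that binds activin receptors together with the coreceptor CRIPTO, the product of Tdgf1, and signals through SMAD2 and SMAD3 with FOXH1. The pathway switches on its own ligand and also its own inhibitors, the LEFTY proteins, which gives it both positive and negative feedback. In the epiblast it sustains pluripotent identity, and at the primitive streak strong signalling turns on Eomes, T and other genes of mesoderm and endoderm.

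The libraries held 4289984 to 4850393 counts. Lhx1 served as the check of the labels. It stood at 1.12 to 3.33 CPM (counts scaled to library size with TMM) in wild-type libraries without doxycycline and 289 to 307 with it, and at 0.407 to 0.429 and 235 to 260 in mutant libraries. Hprt, beside which the transgene sits, also rose in both lines, by log2 fold changes of 1.99 and 1.43 (edgeR adjusted p = 1.70e-18 and 5.79e-09). A pair of wild-type libraries stood apart from the rest of their groups. Untreated library 3 had 229 CPM of Bnip3, a gene induced by low oxygen, against 58.5 and 63.3 in the other libraries of its group, and treated library 2 had 1.45% of its counts in the ribosomal RNA precursor Rn45s, against 0.0884% to 0.265% in the other 11. A smaller excess of Bnip3 was seen in treated wild-type library 3, at 107 CPM against 52.1 and 65.8. That library is not in this pair. The 8 epiblast markers, Pou5f1 among them, summed to 5319 to 6096 CPM over all libraries, and 8 trophoblast markers summed to 5.03 to 9.02 CPM, with Elf5 at 0 counts in 3 groups and 1 count in the other. The labels do not say that libraries of a group were separate cultures, so p-values measure the spread between these samples only.

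Compared per length of exon, the coreceptor was the most abundant of the 9 transcripts in every group. Untreated wild-type libraries had 69.8 ± 16.5 CPM per kb of Tdgf1 (mean ± SD, n = 3), followed by Skil at 35.5 ± 2.18 and Lefty1 at 34.3 ± 2.58, whose libraries overlapped. Lefty2 followed at 27.8 ± 1.81 and Nodal at 14.3 ± 1.75 CPM per kb. The targets and the activin inhibitor lay far lower, with Eomes at 2.26 ± 0.532 and Fst at 1.90 ± 0.395 CPM per kb, again overlapping, Ltbp1 at 0.930 ± 0.0618 and T at 0.230 ± 0.0522. With doxycycline the wild-type order changed in its upper part: Lefty2 (26.9 ± 0.699), Lefty1 (25.7 ± 1.40) and Skil (23.6 ± 3.18 CPM per kb) formed a run in which neighbours overlapped, and Eomes, at 6.97 ± 1.29, no longer overlapped Fst. The mutant groups kept Skil above Lefty1 and Lefty1 above Lefty2 without overlap, and Eomes and Fst overlapped in both.

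**Figure D1:**
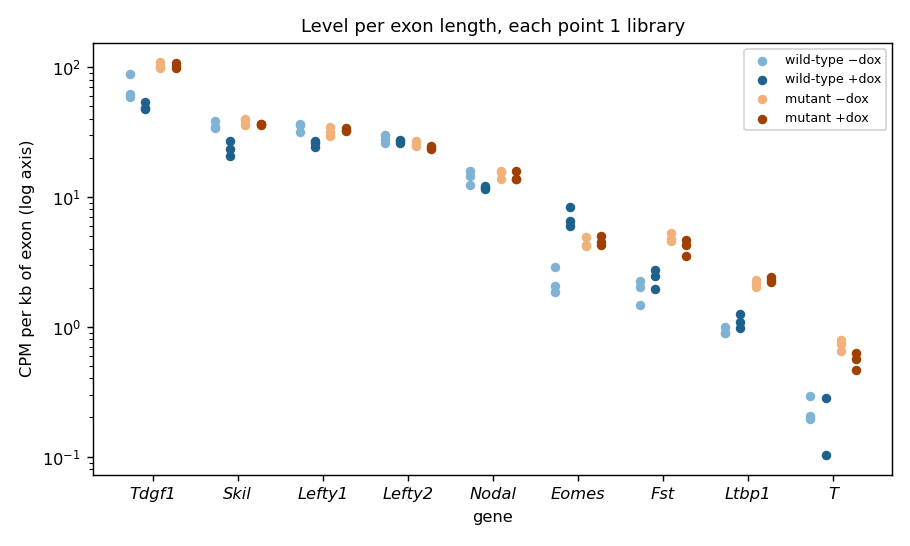
Level of the 9 genes in CPM per kb of exon (log axis), each point 1 library, coloured by group; 1 treated wild-type library with 0 counts of T cannot be drawn on this axis. Tdgf1 is highest in every group, and Eomes is the gene whose treated wild-type points (dark blue) rise above those of all other groups.

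The 250 bases before the RefSeq start (GRCm38.p6) are shown for Eomes, which changed most of the 9 genes, and for Tdgf1 and Nodal, the coreceptor and the ligand, to set a target beside the genes that act upstream of it. They lie at chr9:118477939-118478188 on the plus strand, chr9:110946159-110946408 on the minus strand and chr10:61417722-61417971 on the plus strand. RefSeq promoters were matched for 5 of the 9 genes, namely Nodal, Tdgf1, Eomes, T and Ltbp1. Capitals mark matches, on either strand, to TAATTA (core of LIM homeodomain sites), AATCCACA and AATACACA (FOXH1), CAGAC (SMAD) and AGGTGT (T-box), all read 5′ to 3′ on the strand of the gene.
Eomes: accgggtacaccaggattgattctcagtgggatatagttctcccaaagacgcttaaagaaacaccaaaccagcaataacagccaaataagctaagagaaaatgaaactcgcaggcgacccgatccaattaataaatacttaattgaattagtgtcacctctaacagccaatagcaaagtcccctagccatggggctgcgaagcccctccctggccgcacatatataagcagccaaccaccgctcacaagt
Tdgf1: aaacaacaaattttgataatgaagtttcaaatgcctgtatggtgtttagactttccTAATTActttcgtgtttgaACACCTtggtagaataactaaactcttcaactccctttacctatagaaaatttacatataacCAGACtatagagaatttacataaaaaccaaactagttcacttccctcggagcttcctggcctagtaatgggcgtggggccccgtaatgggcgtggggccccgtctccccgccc
Nodal: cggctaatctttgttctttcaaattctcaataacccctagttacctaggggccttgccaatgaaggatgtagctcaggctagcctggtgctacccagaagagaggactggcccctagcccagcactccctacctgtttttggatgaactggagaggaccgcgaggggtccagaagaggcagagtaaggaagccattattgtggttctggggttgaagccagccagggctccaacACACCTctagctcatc

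The Eomes window held no match to any of these letters. That of Tdgf1 held TAATTA at 194 to 189 bases before the start, AGGTGT on the opposite strand at 175 to 170, and CAGAC at 113 to 109. Nodal held AGGTGT on the opposite strand at 16 to 11 bases before the start. Of 32851 promoter windows of the same length, 4.84% held TAATTA, 0.718% AATCCACA, 0.895% AATACACA, 42.2% CAGAC and 11.8% AGGTGT. A match describes these letters only. None of the 5 motifs contains another.

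With doxycycline in the wild-type line Eomes rose, and Skil and Lefty1 fell. The other 5 tested genes, including the ligand, did not reach the threshold for a call, an adjusted p under 0.05 (Benjamini-Hochberg, over every tested gene). Thus 1 of 8 was called higher and 2 of 8 lower, where 2.76% of all tested genes were called higher and 2.56% lower. The median log2 fold change of the 8 was −0.16, against −0.00344 over all genes tested. Without both libraries that stood apart Tdgf1 was called as well, which made 3 lower. Among the 8 epiblast markers 1 rose and 2 fell: Fgf5, a gene of the primed epiblast, went from 86.4 ± 4.91 to 159 ± 7.89 CPM, Nanog from 70.4 ± 11.5 to 50.2 ± 4.52, and Pou5f1 from 1194 ± 27.6 to 1033 ± 43.7 (SD, n = 3). The part of these pluripotency genes in the changes described next was not tested. RNA came from whole embryoid bodies, so fewer cells of a type and less RNA per cell cannot be told apart.

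Eomes (chromosome 9, 118478212 to 118486132, mm10) encodes a T-box factor that specifies definitive endoderm and anterior mesoderm. Its untreated wild-type libraries had 8.56, 7.69 and 11.9 CPM, from 36, 34 and 53 counts, and the treated ones 35.0, 27.1 and 24.8 CPM, from 153, 114 and 114 counts. Every treated library lay above every untreated one, and the largest of the untreated values came from the library with high Bnip3. The rise was 3.07-fold, a log2 fold change of 1.62 with a 95% interval of 1.31 to 1.93 (edgeR quasi-likelihood test, adjusted p = 5.53e-12). Without both libraries that stood apart it was 1.87 (edgeR adjusted p = 1.10e-12). Eomes is also a gene of trophoblast stem cells, where it is found with Cdx2 and Elf5. In both wild-type groups Cdx2 held 1 count over 3 libraries and Elf5 held 0, and the trophoblast markers summed to 5.20 to 7.17 CPM without and 5.03 to 6.89 with doxycycline.

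**Figure D2:**
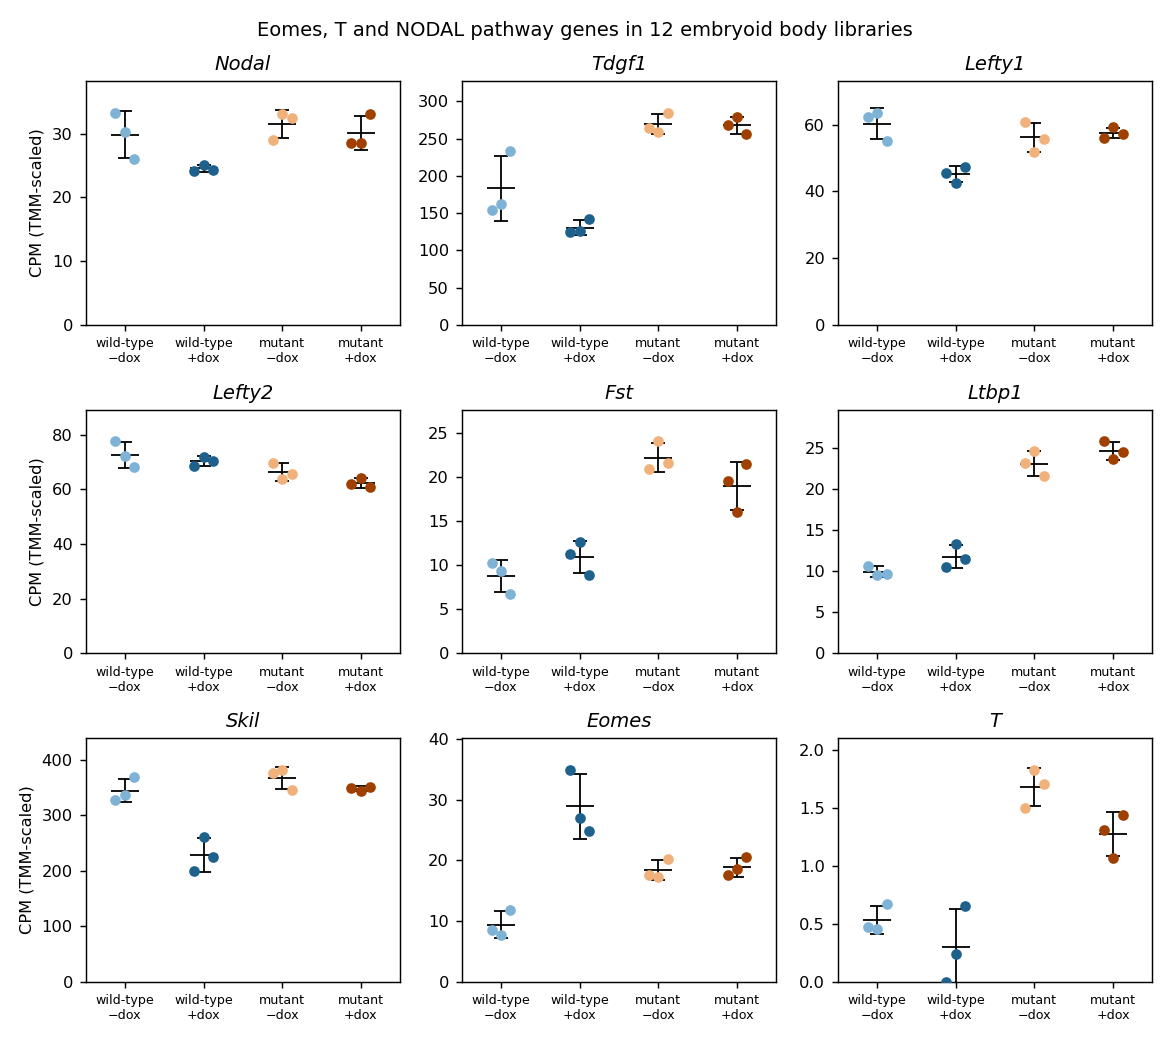
CPM of each gene in each library (points), with the group mean and SD (bars, n = 3), for the wild-type and mutant lines without and with doxycycline; each vertical axis starts at 0. Treated wild-type libraries are the highest for Eomes and the lowest for Skil, Lefty1, Nodal and Tdgf1, and the mutant groups overlap in all panels except that of T. The wild-type changes of Nodal and Tdgf1 were not called by edgeR over all libraries.

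Skil (chromosome 3, 31095058 to 31122577) encodes SnoN, a repressor that binds SMAD complexes in the nucleus. Its levels were 329, 336 and 369 CPM without doxycycline and 199.97, 261 and 225 with it, so the groups were separated by a wide gap. It fell by 0.59 on the log2 scale (95% interval −0.75 to −0.43, edgeR adjusted p = 8.71e-05).

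Lefty1 (chromosome 1, 180935022 to 180938400) and Lefty2 (chromosome 1, 180893108 to 180899103) are neighbouring genes for secreted antagonists that keep NODAL from its receptors. Lefty1 had 62.3, 63.5 and 55.1 CPM in untreated wild-type libraries and 45.5, 42.5 and 47.4 in treated ones. All treated values were below all untreated ones, and it fell by 0.42 on the log2 scale (95% interval −0.58 to −0.25, edgeR adjusted p = 0.000417). Lefty2 had 77.5, 72.1 and 68.1 CPM without and 68.3, 72.0 and 70.4 with doxycycline. Its groups overlapped, with a log2 fold change of −0.05 and a 95% interval of −0.19 to 0.10 (edgeR adjusted p = 0.842). Of all 50-base windows in annotated Lefty1 transcripts 17.9% also occur in Lefty2, and 12% of those of Lefty2 occur in Lefty1, so reads from these stretches could be lost or assigned to the wrong gene. Visceral endoderm, a tissue known to express Lefty1, was represented by 10 markers that summed to 18.8 to 19.7 CPM in untreated and 12.4 to 16.9 CPM in treated wild-type libraries. Of these markers 3 could be tested and 0 were called by edgeR, DESeq2 or limma-voom. All 3 pointed down, with log2 fold changes of −0.55 for Dab2, −0.77 for Cubn and −0.89 for Gata4. Dab2 and Cubn were the 2 at an unadjusted p under 0.05 in edgeR. Gata4 held 15 and 8 counts and passed the low-count filter through the mutant libraries. In the mutant line Dab2 had a log2 fold change of 0.18, Cubn −0.70 and Gata4 −0.55. None of these was called, and Cubn had an unadjusted p under 0.05 in edgeR. Among the untested markers Ttr, a defining one, held 0 counts over the untreated and 1 over the treated wild-type libraries. Afp, also untested, held 1 and 2. The other untested markers were Gata6 (1 and 6), Sox7 (3 and 7), Hnf4a (10 and 11), Amn (5 and 5) and Apoa1 (2 and 2). The part of visceral endoderm markers in the fall of Lefty1 was not tested.

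Nodal itself (chromosome 10, 61417972 to 61425338) stood at 33.3, 30.3 and 26.0 CPM without doxycycline and 24.2, 25.2 and 24.4 with it. The treated libraries were all below the untreated ones by a small margin, and the log2 fold change of −0.28 (95% interval −0.51 to −0.05) did not pass (edgeR adjusted p = 0.180). Its coreceptor Tdgf1 (chromosome 9, 110939603 to 110946158) had 154, 162 and 233 CPM in untreated and 124, 126 and 142 CPM in treated wild-type libraries. The groups did not overlap, but untreated library 3, the library with high Bnip3, was far above the others of its group. With all libraries the log2 fold change was −0.49 (95% interval −0.84 to −0.14, edgeR adjusted p = 0.137). Without untreated library 3 it was −0.28 and passed the threshold (edgeR adjusted p = 0.00188). DESeq2 also called it on all libraries, at −0.49 (adjusted p = 0.0352).

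Fst and Ltbp1 were not called. Fst (chromosome 13, 114452290 to 114458951) encodes follistatin, which binds activin. It had 10.2, 9.27 and 6.72 CPM without and 11.2, 12.6 and 8.91 CPM with doxycycline, overlapping groups with a log2 fold change of 0.32 (95% interval −0.06 to 0.70). Ltbp1 (chromosome 17, 75005568 to 75392512), which anchors latent TGF-beta in the matrix, had 10.7, 9.50 and 9.64 CPM without and 10.5, 13.3 and 11.5 CPM with doxycycline. Its groups overlapped too, with a log2 fold change of 0.24 (95% interval −0.09 to 0.58). T (chromosome 17, 8434423 to 8442496), brachyury, a T-box factor of the primitive streak and notochord, held 2, 2 and 3 counts in untreated and 0, 1 and 3 counts in treated wild-type libraries. The ratio of these sums, 0.567 with a 95% exact counting interval of 0.122 to 2.23, includes 1, and a change in T within these bounds was not detectable at this depth. Counting intervals cover counting error only.

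Induction of the mutant form left all 8 tested genes uncalled. None of the 8 had an unadjusted p under 0.05 in edgeR, and DESeq2 and limma-voom also called 0, while over all genes 0.0162% were called higher and 0% lower by edgeR. Eomes had 17.6, 17.3 and 20.3 CPM in untreated and 17.5, 18.6 and 20.6 CPM in treated mutant libraries. These values interleave, and the interval of the log2 fold change, −0.24 to 0.33, lies below the lower bound of the wild-type rise. Skil had 377, 382 and 345 CPM without and 350.3, 343 and 352 CPM with doxycycline (log2 fold change −0.08, 95% interval −0.23 to 0.07). Lefty1 had 60.8, 51.9 and 55.8 CPM without and 56.1, 59.2 and 57.3 CPM with it (0.04, 95% interval −0.12 to 0.20). Tdgf1 ranged from 259 to 284 CPM without and from 256 to 279 CPM with it (−0.01, 95% interval −0.32 to 0.30). The values of Nodal (−0.07), Lefty2 (−0.09), Fst (−0.22) and Ltbp1 (0.09) had intervals that all included 0. T held 24 counts over the untreated and 18 over the treated mutant libraries, a ratio of 0.758 (95% exact counting interval 0.388 to 1.46).

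**Figure D3:**
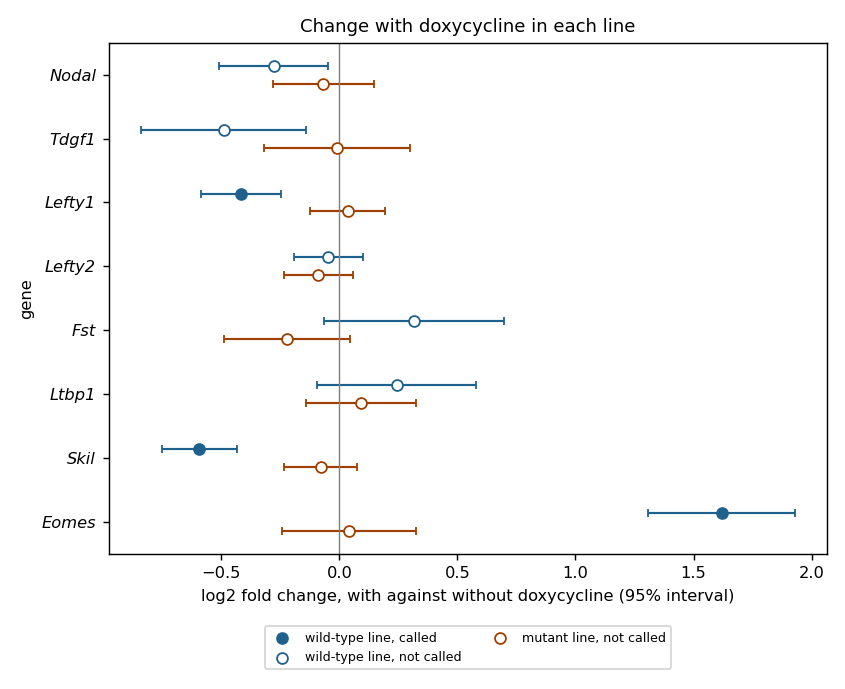
Log2 fold change with against without doxycycline (horizontal axis) for the 8 tested genes in the wild-type line (blue) and the mutant line (brown), with 95% intervals from the edgeR fit; filled points passed an adjusted p under 0.05. Eomes at 1.62, Skil at −0.59 and Lefty1 at −0.42 are called in the wild-type line, and no gene is called in the mutant line.

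The difference between the responses of the lines was tested directly, and it was called for Eomes, Skil and Lefty1. This was 1 higher and 2 lower of 8, where 1.4% of all genes were called higher and 1.09% lower. The wild-type response of Eomes exceeded the mutant one by a log2 difference of 1.58 (SE 0.21, with an adjusted p of 4.08e-07 in edgeR). For Skil the difference was −0.51 (SE 0.10, edgeR adjusted p = 0.0123). For Lefty1 it was −0.45 (SE 0.12, edgeR adjusted p = 0.0150). That call was lost without library 2 of any of the 4 groups (log2 differences −0.43 to −0.40, edgeR adjusted p 0.0532 to 0.0837) and in DESeq2 (adjusted p = 0.147). Tdgf1 had −0.48 (edgeR adjusted p = 0.369), and −0.27 without untreated wild-type library 3, at which it passed narrowly (edgeR adjusted p = 0.0489). Without both libraries that stood apart it was −0.25 and not called (edgeR adjusted p = 0.0899). The Tdgf1 difference stayed uncalled in 18 of 19 alternatives. Fst had 0.54 (95% interval 0.07 to 1.00, edgeR adjusted p = 0.275) and Nodal −0.21 (−0.52 to 0.10), neither of them called. These tests share libraries with those of each line and are not independent of them.

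Without doxycycline the wild-type line had less Eomes, Tdgf1, Fst and Ltbp1 than the mutant line. Of the 8 tested genes 0 were called higher and 4 lower, against 22.6% and 23% of all genes. The median of the 8 was −0.325 on the log2 scale, and −0.0035 over all genes. The visceral endoderm markers summed to 23.1 to 32.2 CPM in the mutant and 18.8 to 19.7 in the wild-type libraries. Gata4 was called lower in the wild-type line, but it passed the low-count filter through the mutant libraries, so its call is a description. Untested Amn held 5 counts in wild-type and 18 in mutant libraries, and untested Hnf4a 10 and 4. Fgf5 stood at 173 ± 7.54 CPM in the mutant against 86.4 ± 4.91 in the wild-type line. The part of these genes in the differences was not tested.

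Fst and Ltbp1 differed most of the tested genes. Mutant libraries had 20.8, 24.02 and 21.6 CPM without doxycycline, all above the 6.72 to 10.2 CPM of the wild-type ones, and the wild-type level was 2.54-fold lower (log2 fold change −1.34, SE 0.16, edgeR adjusted p = 4.50e-10). Ltbp1 stood at 23.2, 24.6 and 21.6 CPM in the mutant and 9.50 to 10.7 CPM in the wild-type line (−1.22, SE 0.14, edgeR adjusted p = 3.10e-10). Eomes was 1.95-fold lower in the wild-type line (−0.97, SE 0.17, edgeR adjusted p = 3.31e-06), with no library of 1 line inside the range of the other. Tdgf1 was 1.47-fold lower (−0.56, SE 0.14, edgeR adjusted p = 0.0115). Its call was lost when only these 6 libraries were fitted (edgeR adjusted p = 0.0736). Bnip3 stood at 137, 109 and 148 CPM in the untreated mutant libraries and at 58.5, 63.3 and 229 CPM in the untreated wild-type ones. All mutant values were thus above those of wild-type libraries 1 and 2 and below that of library 3. Bnip3 was not called (edgeR adjusted p = 0.838), and its part in these differences was not tested.

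T pointed the same way at far lower counts. Untreated mutant libraries held 7, 9 and 8 counts and wild-type ones 2, 2 and 3, a 3.15-fold ratio of mutant to wild-type with a 95% exact counting interval of 1.32 to 8.66. In the fit without a filter on low counts, which admits T, the wild-type line was lower by a log2 fold change of −1.61 (edgeR adjusted p = 0.0308). Nodal (−0.08), Lefty1 (0.10), Lefty2 (0.13) and Skil (−0.10) were not called, with 95% intervals between −0.30 and 0.28 in all 4. Skil passed, at −0.14, once both libraries that stood apart were left out (edgeR adjusted p = 0.0130).

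With doxycycline Eomes was on the other side of the comparison. In the edgeR fit of all libraries 2 of the 8 were higher and 6 lower in the wild-type line, against 22.4% and 21.9% of all genes, and 6 to 8 were called over the alternatives, with Lefty2 and Nodal the calls that were lost. Eomes was now 1.53-fold higher in the wild-type line (log2 fold change 0.61, SE 0.13, edgeR adjusted p = 0.000119), and the lowest treated wild-type library, at 24.8 CPM, lay above the highest treated mutant one, at 20.6. Tdgf1, at 124 to 142 CPM against 256 to 279, was 2.05-fold lower (−1.04, SE 0.15, edgeR adjusted p = 0.000430). Skil was 1.52-fold lower (−0.61, SE 0.07, edgeR adjusted p = 6.67e-06) and Lefty1 1.27-fold lower (−0.35, SE 0.08, edgeR adjusted p = 0.000525), with no overlap of libraries.

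Fst and Ltbp1 stayed on the same side as without doxycycline, at −0.81 (SE 0.16) and −1.07 (SE 0.14). T held 6, 5 and 7 counts in treated mutant libraries, 4.21-fold more than in treated wild-type ones by the ratio of sums (95% exact counting interval 1.39 to 17.1), and the fit without a filter gave −1.98 (edgeR adjusted p = 0.0257). The calls of Nodal and Lefty2 were marginal. Nodal was lower by 0.29 on the log2 scale (95% interval −0.52 to −0.07, edgeR adjusted p = 0.0299). Its call was lost without treated wild-type libraries 1 or 3, without treated mutant library 3 (edgeR adjusted p = 0.0707, 0.0761 and 0.176) and in DESeq2 (adjusted p = 0.116). Lefty2 was higher by 0.17 (95% interval 0.03 to 0.32, edgeR adjusted p = 0.0498) and lost its call under 16 of 20 alternatives, with values of 0.15 to 0.19.

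**Figure D4:**
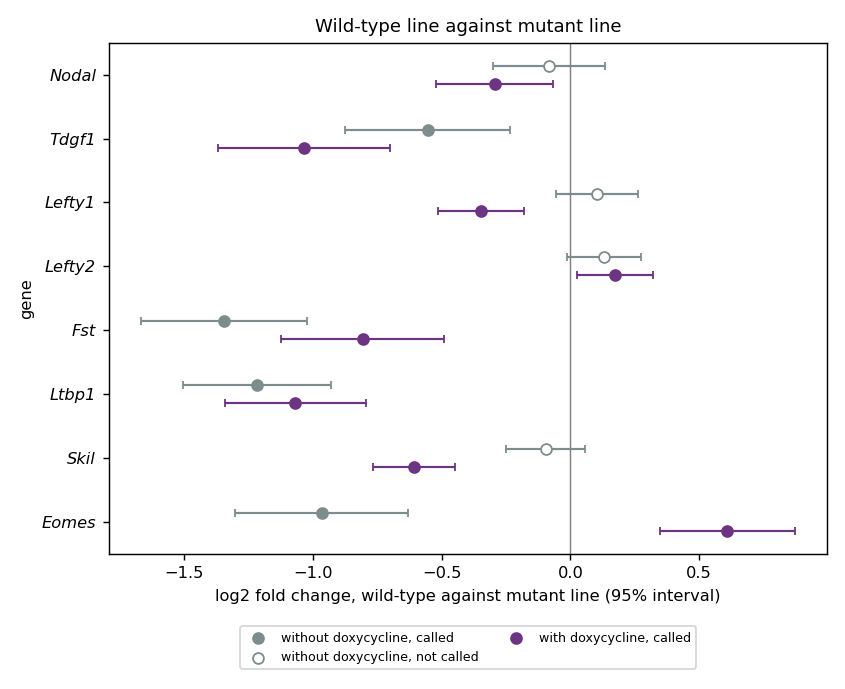
Log2 fold change of the wild-type against the mutant line (horizontal axis) for the 8 tested genes, without (grey) and with doxycycline (purple), with 95% intervals from the edgeR fit; filled points passed an adjusted p under 0.05. Eomes moves from −0.97 to 0.61, while Fst and Ltbp1 are below 0 in both.

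The order of the 4 groups was thus not the same for all genes. For Eomes treated wild-type libraries came out on top (28.9 ± 5.34 CPM, SD, n = 3), the mutant groups lay between (18.9 ± 1.56 with and 18.4 ± 1.66 without doxycycline, overlapping), and untreated wild-type libraries were lowest (9.38 ± 2.21). For Fst both mutant groups (22.1 ± 1.67 and 19.0 ± 2.74 CPM) were above both wild-type groups (10.9 ± 1.86 and 8.74 ± 1.81), and the groups of 1 line overlapped. Ltbp1 had the same split, with 24.7 ± 1.09 and 23.1 ± 1.51 CPM in the mutant and 11.8 ± 1.41 and 9.95 ± 0.660 CPM in the wild-type line. Skil, Lefty1 and Nodal had treated wild-type libraries below the other 3 groups, which overlapped in sequence (Skil 229 ± 30.8 CPM against means of 345 to 368).

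Other components of the pathway were followed with a list of 29 genes besides those described, of which 22 could be tested. In the wild-type response 0 of the 22 rose, 1 fell and 21 were not called by edgeR, with 5 at an unadjusted p under 0.05. Over all genes 2.76% were called higher and 2.56% lower, and 1 of 22 is near that share. The gene that fell was Trim33, which encodes a SMAD-binding ubiquitin ligase (log2 fold change −0.25, SE 0.06, edgeR adjusted p = 0.00265), and its difference between the lines was not called (−0.24, edgeR adjusted p = 0.0951) until both libraries that stood apart were left out, when Trim33 and Ski were called lower. In the mutant response 0 of 22 were called, 0 had an unadjusted p under 0.05, and DESeq2 and limma-voom called 0. Genes next described were taken for their role. Smad2 (log2 fold changes 0.01 and 0.01 in the wild-type and mutant lines), Smad3 (0.06 and −0.08) and Foxh1 (0.13 and 0.01), the transducers of the signal, were not called in either line. The receptor genes Acvr1b (0.20 and 0.02) and Acvr2b (−0.12 and −0.11) were not called either. Acvr1c, which encodes an alternative type I receptor, had 0 counts in all 12 libraries.

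Between the untreated lines 3 of these 22 genes were higher and 10 lower in the wild-type line, where 22.6% of all tested genes were called higher and 23% lower. Tgif2, a homeodomain corepressor of SMADs, was lower by −0.58 (SE 0.07), Tgfbr1, a type I TGF-beta receptor, by −0.67 (SE 0.09), Smad4, the common SMAD, by −0.30 (SE 0.06), and Furin, a protease that processes the NODAL precursor, by −0.46 (SE 0.11), all on the log2 scale. Gdf3, a ligand related to NODAL, was higher by 0.51 (SE 0.11), at 37.0 ± 4.12 against 26.0 ± 1.06 CPM. With doxycycline 4 were higher and 8 lower, where 22.4% and 21.9% of all tested genes were called. The 4 include a gene that passed the low-count filter through the wild-type libraries, where it was higher. Its call and the count of 4 are therefore a description. Among the lower ones were Tgif2 (−0.58, SE 0.07), Trim33 (−0.45, SE 0.06), Ski (−0.38, SE 0.06), which encodes the relative of SnoN, Tgfbr1 (−0.43, SE 0.09) and Pmepa1, a feedback inhibitor that sequesters SMADs (−1.35, SE 0.21; 4.71 ± 0.456 against 12.1 ± 3.55 CPM). The edgeR adjusted p of these named genes ranged over both comparisons from 4.21e-10 to 0.000487. Without both libraries that stood apart 3 were higher and 7 lower in the untreated and 4 higher and 9 lower in the treated lines.

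**Figure D5:**
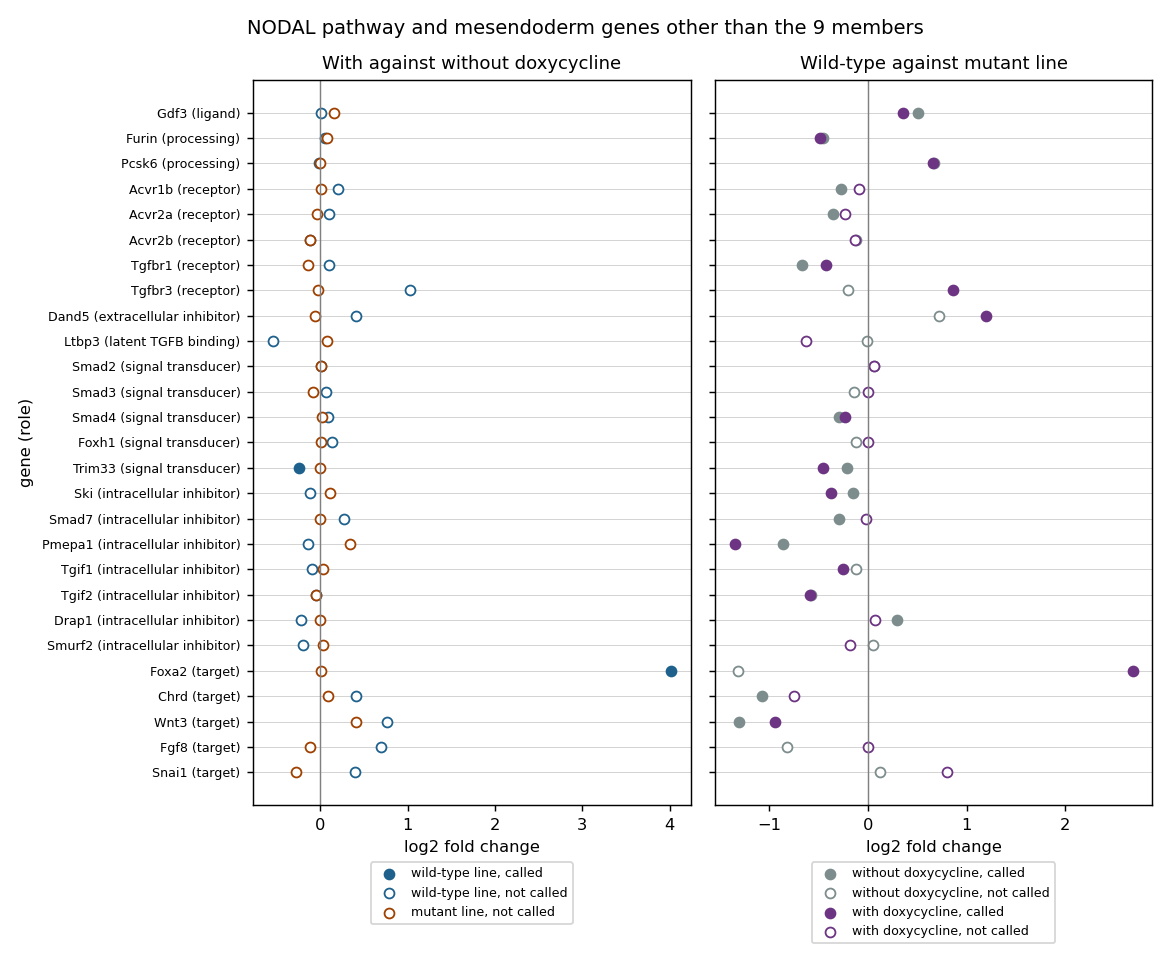
Log2 fold change (horizontal axes) of the 22 tested pathway genes and 5 of the 6 tested mesendoderm targets outside the 9, by role; left, with against without doxycycline in the wild-type (blue) and mutant line (brown); right, wild-type against mutant line without (grey) and with doxycycline (purple). Filled points passed an edgeR adjusted p under 0.05: on the left these are Trim33 and Foxa2 in the wild-type line, on the right they lie on both sides of 0. Foxa2 passed the low-count filter through the treated wild-type libraries alone, so its filled points are a description. Wnt3 and Chrd passed it through the mutant libraries and Dand5 through the wild-type ones, so their filled points are a description too.

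Of 12 further mesendoderm targets 6 passed the filter. In the wild-type response 2.76% of all tested genes were called higher and 2.56% lower. Of the 6 targets 5 were not called and 1 was called higher. This was Foxa2, which encodes a forkhead factor of the node and endoderm, at 2 counts over untreated and 38 over treated wild-type libraries, an 18.9-fold ratio with a 95% exact counting interval of 4.87 to 161 (edgeR adjusted p = 2.82e-05). It passed the low-count filter through the treated wild-type libraries alone, the group in which it was high, so its call and the count it belongs to are a description. Both mutant groups held 6 counts of it, and the difference between the lines was not called by edgeR (adjusted p = 0.0690) or DESeq2 but was by limma-voom. Mixl1 held 9 and 10 counts over the untreated and treated wild-type libraries, Gsc 4 and 7, Sox17 4 and 4, Mesp1 2 and 1, and Tbx6 7 and 3. Evx1 held 2 and 13, of which 9 came from treated library 1, and 2 and 1 in the mutant line. The 95% exact counting intervals of the wild-type ratio were 0.403 to 3.07 for Mixl1, 0.442 to 8.09 for Gsc and 0.00841 to 9.53 for Mesp1. Changes of these 3 genes within these bounds were not detectable at this depth. In the mutant line 0 of 6 were called by edgeR, DESeq2 or limma-voom, with 0 at an unadjusted p under 0.05. Between the untreated lines 0 of the 6 were higher and 3 lower in the wild-type line (22.6% and 23% of all tested genes). Among the 3 were Wnt3 (15 counts in wild-type, 41 in mutant libraries) and Chrd (23 and 53). Both passed the low-count filter through the mutant libraries, where they were higher, so their calls and this count are a description. With doxycycline 1 was higher and 2 lower (22.4% and 21.9% of all tested genes). The higher one was Foxa2 and 1 of the lower ones was Wnt3, each with the limit given above.

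The transcripts whose pattern over the 12 libraries was most like that of Eomes were Ppp2r2c, Colec12, Syt13, Sez6 and Pax6. The root mean square difference of their log2 CPM, centred over the libraries, from that of Eomes was 0.200, 0.227, 0.233, 0.254 and 0.260, where the median over all tested genes was 0.633. Colec12, a scavenger receptor, went from 12.97 ± 0.781 to 31.3 ± 4.47 CPM in the wild-type line and stood at 25.5 ± 1.32 and 25.5 ± 0.559 in the mutant line (n = 3 each). Pax6, a paired-box regulator of eye and forebrain, went from 3.97 ± 0.113 to 9.93 ± 0.256 CPM and stood at 6.60 ± 0.769 and 6.36 ± 1.32. For Nodal, whose log2 CPM ranged over 0.45 in all, the nearest were Axin1, Slc7a3, Ftsjd1, Elovl6 and Rnf44, at 0.0826 to 0.0938 against a median of 0.266. These genes were picked for their likeness, so their values are a description.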

How the data were processed

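Total RNA from 12 libraries, extracted with a column kit and prepared with TruSeq, was sequenced, per the labels' protocols. The values are raw counts per gene symbol as deposited by the authors. Trimmomatic 0.33, TopHat2 2.1.1, mm10 and limma are named in the submitters' processing notes. No source used here gives the counting tool, its annotation or its use of strand, so reads of a gene and of an antisense gene may not be separated (Gm33460 over Eomes, Gm47040 over Fst).

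Counts were fitted with edgeR 4.0.16 in R 4.3.3 (TMM, filterByExpr with a minimum count of 10 and a total of 15, robust quasi-likelihood test, 1 mean per group over all 12 libraries), with Benjamini-Hochberg adjustment over 12322 genes and a threshold of 0.05. SEs and 95% intervals came from that fit. Alternatives were DESeq2 1.42.0, limma-voom 3.58.1, other scalings, no filter, fewer libraries and a replicate block. No 2 libraries of a group agreed within sampling noise, and none were merged. The code was tested on simulated data. Exon lengths and positions came from GENCODE M21 on mm10, and promoters from RefSeq. The 5 comparisons share libraries.

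The 9 genes and the gene lists were chosen with earlier results of these data known. Named genes were the 9, up to 6 called list genes per comparison by smallest adjusted p, the 5 genes most like Eomes and Nodal, and Lhx1 and Hprt. Other genes named were chosen for their role or after their values were seen. The values of 1 list gene are not reported here.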

Additional observations from a re-analysis of the deposited data

Results flagged for a closer look

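The response to doxycycline differed between the wild-type and the mutant line, by the direct test of that difference, for 3 of the genes. For Eomes the log2 difference was 1.58 (SE 0.21, with an adjusted p of 4.08e-07 in edgeR), with every treated wild-type library above every untreated one and overlapping groups in the mutant line. For Skil it was −0.51 (SE 0.10, edgeR adjusted p = 0.0123), and for Lefty1 −0.45 (SE 0.12, edgeR adjusted p = 0.0150), both with treated wild-type libraries below all untreated ones and overlapping mutant groups. The Lefty1 call was lost in 5 of 19 alternatives, namely without library 2 of any of the 4 groups (edgeR adjusted p 0.0532 to 0.0837) and in DESeq2 (adjusted p = 0.147).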

How the results depend on the processing

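No called result changed sign under the alternatives run, while some uncalled values near 0 did, such as Eomes in the mutant response (−0.03 to 0.12). Eomes kept its call in all comparisons in which it had one, with log2 fold changes of 1.46 to 1.87 for the wild-type response, 1.42 to 1.82 for the difference of responses, −1.18 to −0.84 between the untreated and 0.45 to 0.72 between the treated lines. Skil and Lefty1 kept theirs in the wild-type response (−0.70 to −0.51 and −0.48 to −0.38). Over all genes DESeq2 called 380 in the wild-type response, where edgeR called 655, and 153 in the difference of responses, where edgeR called 307; the cause was not tested. In the mutant response 5 genes were called when only the libraries compared were fitted, against 2 with all. Of the 8 tested genes the number called ranged from 3 to 4 in the wild-type response, 2 to 4 in the difference, 3 to 5 between the untreated and 6 to 8 between the treated lines, and was 0 in the mutant response throughout. Same-numbered libraries showed little shared deviation over the tested genes (r −0.0615 to 0.0794). Counting noise is part of these deviations, so they cannot decide whether the numbers pair libraries. Library 3 had the most Bnip3 of its group in the wild-type line without and with doxycycline (229 and 107 CPM). In the mutant line library 3 had the most without and the least with doxycycline (148 and 83.4 CPM). With the replicate block Lefty2 lost its call between the treated lines (0.17, edgeR adjusted p = 0.0576), and 3, 0, 3, 4 and 7 of the genes were called in the 5 comparisons. Fitting only the libraries compared does not apply to the difference of responses. T, at 0 to 9 counts per library, and most streak genes are limited by depth.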

Other observations

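The neighbouring antagonists Lefty1 and Lefty2 were also compared with each other. The ratio of Lefty1 to Lefty2 counts was 0.804, 0.881 and 0.809 in untreated and 0.666, 0.591 and 0.673 in treated wild-type libraries, so the groups did not overlap. In the mutant line it was 0.871, 0.815 and 0.853 without and 0.905, 0.923 and 0.942 with doxycycline, again without overlap but in the opposite direction. Neither gene was called in the mutant response (log2 fold changes of 0.04 for Lefty1 and −0.09 for Lefty2). The exact two-sided permutation test gave p = 0.1 in each line, the smallest that 3 against 3 libraries allow. Any such groups without overlap give this value, so the test adds nothing to the lack of overlap. This ratio was chosen after the values were seen, and these genes share part of their sequence.

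Tgfbr3, which encodes the TGF-beta coreceptor betaglycan, had a log2 fold change of 1.03 in the wild-type response and was not called by edgeR (adjusted p = 0.0660), but was called by limma-voom and without both libraries that stood apart.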
